A study of Mus musculus with 11 samples.

Results

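Serum/LIF was set against the 2 serum-free media of the study in mouse embryonic stem (ES) cells, and the genes described here are those for which every serum array lay above, or every serum array lay below, all 8 serum-free arrays. Of 16279 genes tested, 1050 lay wholly above and 631 wholly below. The difference of a gene is its mean level on the 3 serum/LIF arrays minus the equally weighted mean of the 2i/LIF mean (5 arrays) and the KOSR/LIF mean (3 arrays). A level is the log2 intensity of the gene's probe on a one-colour Agilent array minus the 75th percentile of that array, so 0 is the level of a probe brighter than 75% of all probes, and a difference of 1 is a doubling. Levels of different genes come from different probes and are not compared with each other.

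All cells were unsorted ES cells of the 129/Ola background, from 3 lines (E14, HVJu5.1 and HVJu9.3), kept for at least 3 passages in their medium. Every group, serum and serum-free alike, received LIF (leukaemia inhibitory factor), and the labels name no transgene and no knockout. Each medium was represented by the 3 lines in the study's design, but the titles and the source names give different lines for 2i/LIF replicates 1 to 4. By title, 2i/LIF replicates 4 and 5 repeat the lines of replicates 1 and 2 (HVJu5.1 and HVJu9.3). The fit took all 5 arrays as separate replicates. Expression after long culture was measured, so a difference describes adapted populations and not an acute response to serum.

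Serum is an undefined mixture of growth factors, lipids, hormones and attachment proteins. It holds lysophospholipids that promote actin assembly and activate the transcription factor SRF, mitogens that activate the ERK kinases, and bone morphogenetic proteins (BMPs) that act through SMAD1/5 and induce Id genes. The 2i medium is defined and holds one inhibitor of MEK, the kinase upstream of ERK, and one inhibitor of GSK3, whose inhibition stabilises beta-catenin. KOSR (knockout serum replacement) is a defined substitute rich in lipid-loaded albumin and insulin, and it contains neither kinase inhibitor. ES cells in 2i lose much of the DNA methylation that serum cultures carry, and they express naive pluripotency genes more evenly.

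The array of KOSR/LIF replicate 3 stood apart from the others. It was dim, with 43.7% of probes well above background against 53.7% to 72.6% on the other 10 arrays, and it correlated with the other arrays of its medium at 0.931 and 0.936. In the value table that the authors deposited beside the scanner files, 6 columns matched the scanner file of the same name best (r = 0.996 to 0.999 over 21912 probes). The columns of 2i/LIF replicates 1 and 4 each matched the scanner file of the other, as did those of KOSR/LIF replicates 1 and 2, which leaves the groups as they are. The column of KOSR/LIF replicate 3 correlated with its own scanner file at 0.911 and with the scanner file of KOSR/LIF replicate 1 at 0.986, so it matched no scanner file closely. Results below come from the scanner files, and the number of a list's genes called is also given without KOSR/LIF replicate 3 or from the value table where either moved it by over 1.5 times. The 3 serum arrays correlated with each other at 0.980 to 0.986. All 6 ES cell markers examined (Pou5f1, Sox2, Nanog, Sall4, Zfp42 and Esrrb) were well above background on all 11 arrays.

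Across all genes, 1037 were called higher in serum (6.37% of those tested) and 697 lower (4.28%), by limma with a Benjamini-Hochberg adjusted p under 0.05. Position without overlap is a count of its own: 1050 genes above are 6.45% of those tested and 631 below are 3.88%. Of the genes above, 701 were also called higher (4.31% of those tested), and of the genes below, 440 were also called lower (2.7%). With both directions together, 10.3% of the genes tested did not overlap. Without KOSR/LIF replicate 3, 6.47% of genes were called higher and 5.07% lower, 1216 lay above (7.47%) and 985 below (6.05%). In the value table, 7.17% were called higher and 5.2% lower, 964 lay above (5.92%) and 743 below (4.56%). The table placed 796 of the 1050 genes above in the same position (75.8% of them, and 82.6% of the 964 found there). For the genes below it was 465 of 631 (73.7%, and 62.6% of the 743 found there), and no member turned its sign. The calls leaned on every serum array, since leaving out serum replicate 1, 2 or 3 lowered the number called from 1734 to 813, 993 or 951.

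The 2 serum-free media did not contribute equally. Serum against 2i/LIF alone gave 1624 genes higher (9.98%) and 1098 lower (6.74%), and serum against KOSR/LIF alone gave 359 higher (2.21%) and 386 lower (2.37%). These comparisons share the 3 serum arrays. Among the 1050 genes above, the median difference was 1.34, and the medians were 1.54 against 2i/LIF and 1.02 against KOSR/LIF. Among the 631 genes below, the median difference was -1.35, and the medians were -1.47 against 2i/LIF and -1.22 against KOSR/LIF. Genes above that were also called higher against each medium separately numbered 221 (1.36%), and genes below called lower against each numbered 183 (1.12%). A gene can pass the combined test through 1 medium only. Where no medium is named, a difference is the combined one, which need not hold against each medium.

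Enpp2 and Thbs1 had the largest excess in serum among the named genes. Enpp2 (autotaxin, the secreted enzyme that makes lysophosphatidic acid) stood at 1.78, 1.5 and -0.87 on the 3 serum arrays, between -8.06 and -4.68 on the 5 arrays of 2i/LIF and at -5.12, -5.58 and -2.75 in KOSR/LIF. No serum-free array had its probe well above background, so the excess is a bound: serum was at least 34.1-fold higher (fitted difference 6.13 ± 0.81 SE, limma adjusted p = 0.0009). The groups did not overlap, and the nearest serum and serum-free arrays were 1.87 apart.

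Thbs1 (thrombospondin-1, a matricellular glycoprotein) stood at 2.45, 0.64 and 2.56 in serum, at -6.79, -4.84, -6.68, -6.27 and -7.46 in 2i/LIF, and at -2.02, -1.46 and -2.62 in KOSR/LIF. KOSR/LIF was thus intermediate, and serum exceeded it by 3.92 (limma adjusted p = 0.00848). Against 2i/LIF, where the probe was never well above background, serum was at least 102-fold higher, and the combined difference was 6.10 ± 0.55 (limma adjusted p = 9.65e-05). Slc39a8 (a zinc, manganese and cadmium importer) followed the same order, with 0.81, 0.90 and 0.22 in serum, -2.11, -2.68 and -2.52 in KOSR/LIF and -8.40 to -4.99 in 2i/LIF. Kif1a (a kinesin motor of vesicle transport) was detected in KOSR/LIF too, at -0.74, -0.61 and -0.26, and its 3 serum arrays were at 2.72, 2.12 and 2.06.

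The other genes among the 12 largest that met the naming rule were Fndc3c1, Mal2 (a protein of apical vesicle transport), Egr1, Kctd12b, Rgs17 (a regulator of G-protein signalling), Slc23a1 (a vitamin C transporter), Gbp2b (a guanylate-binding GTPase) and Calcr (the calcitonin receptor), with differences from 4.73 to 5.35. In 8 of the 12, no 2i/LIF array was well above background, and in 2 of the 12 no KOSR/LIF array was. Of the 12, 11 were also called against each medium on its own, Egr1 being the exception (1.98 against KOSR/LIF, limma adjusted p = 0.0552). Egr1 was also the only one of the 12 whose serum and serum-free columns overlapped in the value table. All 12 stayed called whichever array was left out.

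**Figure D1:**
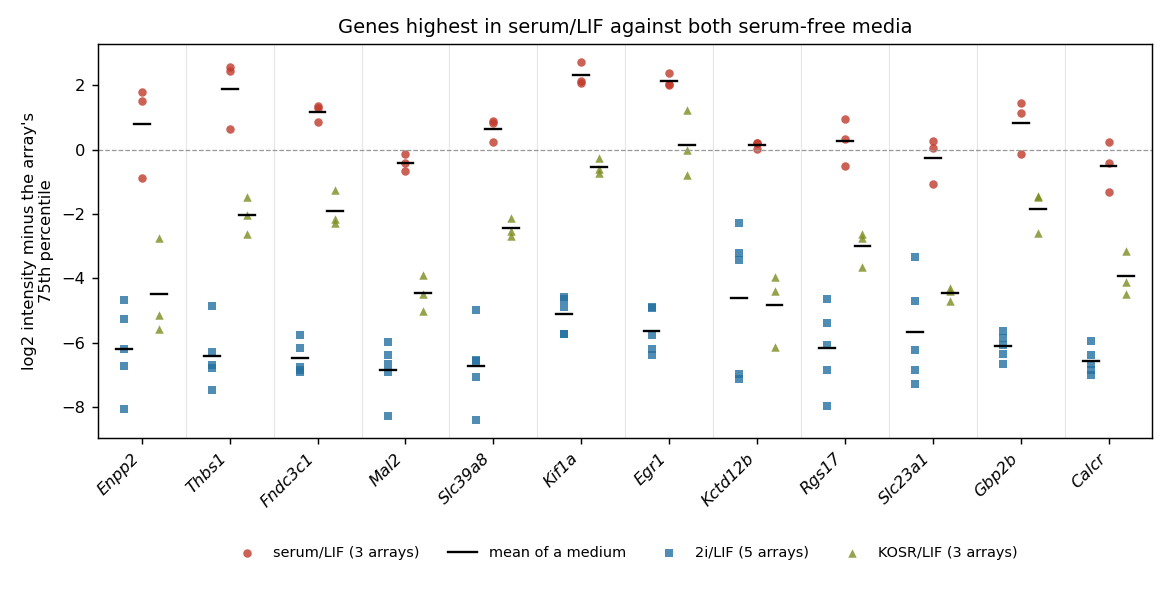
Level of each of the 12 named genes with the largest excess in serum/LIF, on the vertical axis as log2 intensity minus the array's 75th percentile, with 1 symbol per array and a black bar for the mean of a medium. Every red symbol (serum, 3 arrays) lies above every blue (2i/LIF, 5 arrays) and green symbol (KOSR/LIF, 3 arrays), and KOSR/LIF lies between the others for most genes, as for Thbs1 and Kif1a.

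Genes of epithelial junctions and simple-epithelium keratins had the largest share called among the lists examined. Of 19 tested, 16 were called higher in serum and none lower, 15 lay wholly above, and the median difference was 2.15, against 0.00 and 10.7% called over all genes tested. The count called was also 16 without KOSR/LIF replicate 3 and 16 in the value table, where 14 lay above. Against each medium alone, 12 of the 19 were called higher than in 2i/LIF and 12 higher than in KOSR/LIF, with 8 lying above and called against both: Krt18, Krt8, Cldn6, Cldn7, Cgn, Ap1m2, Epcam and Esrp1. In bulk RNA, a change in the share of cells that express a gene and a change in RNA per cell cannot be told apart.

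Krt18 (the type I keratin of simple epithelia) stood at 7.11, 5.93 and 6.45 in serum, at 2.41, 1.51, 0.59, 1.53 and 0.77 in 2i/LIF and at 3.62, 4.10 and 2.08 in KOSR/LIF, a difference of 4.18 ± 0.48 (limma adjusted p = 0.000383). Its partner Krt8 differed by 3.49 ± 0.77 (limma adjusted p = 0.0135), with 3.11 against 2i/LIF and 3.87 against KOSR/LIF. Cldn6, a tight-junction claudin of ES cells and early epithelia, stood at 2.26, 2.17 and 1.99 in serum, with all 8 serum-free arrays between -4.24 and -0.79. For Cldn6 the excess was about as large against either medium, 3.95 against 2i/LIF and 4.34 against KOSR/LIF. Krt19 showed the widest spread in 2i/LIF, from -3.44 to 0.96, and did not pass against KOSR/LIF alone (2.80, limma adjusted p = 0.137).

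The adhesion molecule Epcam and the junction protein Cgn (cingulin) were tighter. Epcam lay between 2.02 and 2.23 in serum and between -1.36 and 1.03 without serum. Cgn lay between 3.30 and 3.79 in serum, 1.51 and 1.85 in KOSR/LIF and -1.37 and -0.25 in 2i/LIF, so the 3 media did not overlap at all. The regulators Grhl2 (an epithelial transcription factor, 2.17) and Esrp1 (an epithelial splicing factor, 2.47) were called higher as well. Cdh1 (E-cadherin), which holds ES cell colonies together, behaved otherwise: serum and 2i/LIF differed by -0.12 (limma adjusted p = 0.835), and Cdh1 passed the combined test only through KOSR/LIF, where the 3 arrays were at 2.56, 2.69 and 2.21 against 4.19 to 4.39 in serum. Cldn3, Cdh1 and Jup were among the 4 members that overlapped.

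**Figure D2:**
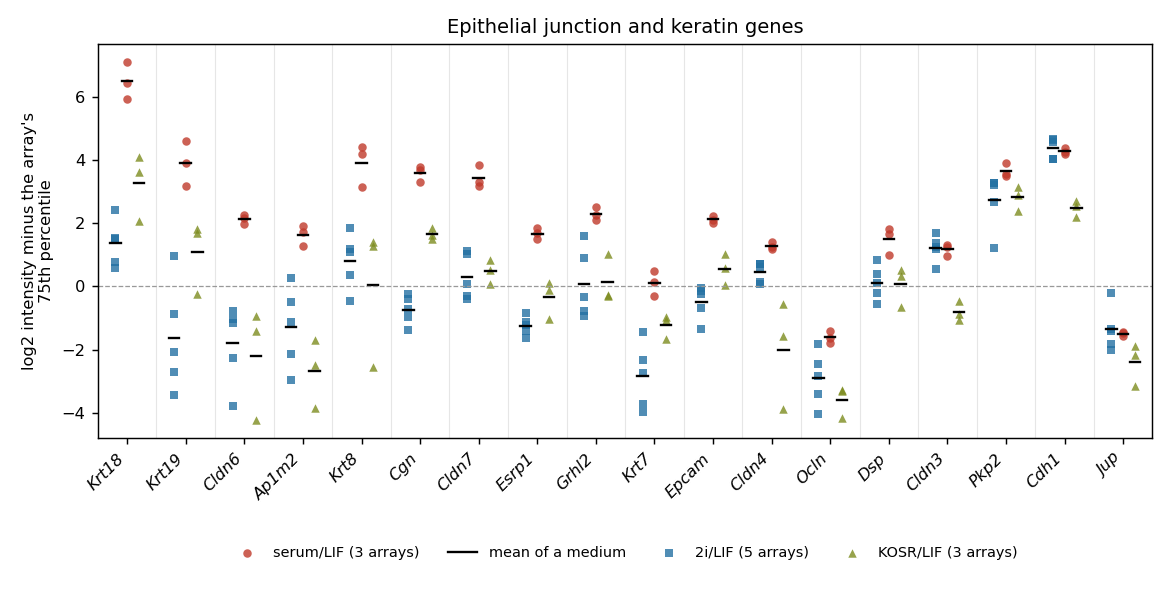
Level of 18 of the 19 tested epithelial junction and keratin genes per array (vertical axis, log2 intensity minus the array's 75th percentile), ordered by their difference, with black bars for the mean of each medium. Serum arrays (red) lie above all serum-free arrays for 15 of the 18 genes shown, all but Cldn3, Cdh1 and Jup, and Cdh1 shows low values in KOSR/LIF (green) only.

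Among other genes with the same profile, chosen after their values were seen, were S100a6 and Anxa3. S100a6, a small calcium-binding protein, stood at 6.25, 4.97 and 6.18 in serum, 3.03, 2.34 and 1.85 in KOSR/LIF and -0.36 to 1.3 in 2i/LIF, a difference of 4.44 ± 0.43 (limma adjusted p = 0.000142). Over the families, 4 of 11 S100 genes, 3 of 11 annexins, 7 of 30 keratins and 5 of 16 claudins were called higher, against 6.37% of all genes, and 1 keratin and 1 claudin were called lower. The trophoblast list shares the keratins Krt7, Krt8 and Krt18, and 7 of its 18 tested members were called higher and 1 lower. Of 5 defining trophoblast markers (Cdx2, Elf5, Gata3, Hand1 and Prl3d1), 1 was called, Hand1, and it did not differ from KOSR/LIF (0.29, limma adjusted p = 0.845). The log2 of the summed signal of these 5 markers ran from 0.23 to 0.98 in serum, from 0.05 to 1.11 in KOSR/LIF and from -1.19 to 0.60 in 2i/LIF, and its part in the keratin result was not tested.

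Targets of SRF and its cofactors MRTF, which respond to actin polymerisation, were called higher in 13 of 22 and lower in none, with 11 wholly above and a median difference of 1.34. The count was 13 without KOSR/LIF replicate 3 and 13 in the value table. Most of the excess was against 2i/LIF, where 15 of the 22 were called higher, and only 2 were called higher against KOSR/LIF alone. Cnn1 (calponin, an actin-binding protein of contractile cells) stood at 2.62, 1.41 and 2.25 in serum, 0.24, 0.77 and 0.41 in KOSR/LIF and -5.80 to -2.79 in 2i/LIF. Its combined difference was 4.27 ± 0.55 (limma adjusted p = 0.000771) and its difference from KOSR/LIF 1.62 (limma adjusted p = 0.208). Fhl2, a LIM-domain cofactor, differed by 4.15 ± 0.79 (limma adjusted p = 0.00618), and from KOSR/LIF by 2.96 (limma adjusted p = 0.107).

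Acta1 (skeletal alpha-actin, 3.26) and Myl9 (a regulatory myosin light chain, 2.73) were called higher but overlapped with KOSR/LIF arrays. Acta2 (smooth-muscle alpha-actin) varied within serum, at 3.19, 0.44 and 2.67, and was at 2.30, 2.85 and 2.92 in KOSR/LIF, and it was not called (1.97, limma adjusted p = 0.12), but was without 2i/LIF replicate 2 (2.27, limma adjusted p = 0.016). The non-muscle actins Actb (0.17) and Actg1 (0.44) were not called. Srf itself lay wholly above, at 2.34, 2.00 and 2.35 against 1.11 to 1.94 without serum, but its difference of 0.56 did not pass (limma adjusted p = 0.0933). For Cnn1, Fhl2 and Acta1 the means ran from serum through KOSR/LIF to 2i/LIF, with the smaller gap to KOSR/LIF.

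SRF binds the CArG box, and such a box was looked for on both strands from 250 bases before to 50 bases after the start in RefSeq promoters of GRCm38.p6, which covered 12911 of the genes tested. It was present in 10 of 23 promoters of the SRF and MRTF list (43.5%), in 2.66% of the promoters of genes wholly above, in 1.29% of those wholly below and in 1.47% of all promoters. The list was drawn from known targets, so its share describes how such a list is made. The windows of 3 called members are shown, 5′ to 3′ in the gene's direction with the box in capitals. Cnn2 (calponin 2) is on chr10:79988524-79988573, plus strand. Vcl (vinculin, which links actin to integrins and cadherins) is on chr14:20929151-20929200, plus strand. Myl9 is on chr2:156775283-156775332, plus strand. The boxes begin 56, 227 and 161 bases before the annotated start.
Cnn2: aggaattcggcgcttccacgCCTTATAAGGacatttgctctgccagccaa
Vcl: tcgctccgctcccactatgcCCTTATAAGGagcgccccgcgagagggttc
Myl9: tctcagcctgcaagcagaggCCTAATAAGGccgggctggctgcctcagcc
Cnn2 differed by 2.09 ± 0.35 and Vcl by 0.79 ± 0.20, both wholly above. A GGAATG match (the TEAD motif, both strands) was in 13.4% of promoters above and 12.8% of all, and a TGANTCA match (the AP-1 motif) in 6.51% and 5.64%.

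YAP and TEAD targets, another set that responds to adhesion and serum lipids, were called higher in 8 of 20 and lower in none, with 6 wholly above and a median of 1.3. Beside Thbs1, Ccn2 (CTGF, a matricellular protein) stood at 4.40, 4.08 and 4.29 in serum and between 0.97 and 3.06 without serum, and it was called against 2i/LIF (2.32) and against KOSR/LIF (1.88). Its relative Ccn1 differed by 1.99 ± 0.49 (limma adjusted p = 0.0236) with a difference from KOSR/LIF of 1.22 (limma adjusted p = 0.295). Ankrd1 and Tgfb2 were called through 2i/LIF and overlapped with KOSR/LIF. Of 18 integrin and focal adhesion genes, 5 were called higher, all 5 wholly above, among them Zyx (zyxin, 2.34), Itga3 (1.69), Tns3 and Vcl. No member of that list was called against KOSR/LIF alone.

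Extracellular matrix genes were called higher in 5 of 21, among them Lamb1 (laminin beta 1, 1.97) and Fbn1 (fibrillin 1, 2.04), both close to KOSR/LIF. The value table had 8 called, though Fbn1 was at the threshold there (limma adjusted p = 0.05). Col1a1 (1.20), Col3a1 (0.58) and Fn1 (0.47) did not pass. Feeder fibroblasts could bring such transcripts, so 8 defining markers were examined (Col1a1, Col1a2, Col3a1, Thy1, Dcn, Lum, Pdgfrb and Twist2). All 8 were tested and 1 was called, Twist2 (3.16 ± 0.50), which did not pass against KOSR/LIF alone (1.85, limma adjusted p = 0.109). Its probe was never well above background in 2i/LIF, where serum was at least 5.13-fold higher. Of the 8 markers, 3 were well above background on all arrays, and 7 on all serum arrays. The log2 of their summed signal ran from 1.94 to 3.79 in serum, 2.84 to 3.64 in KOSR/LIF and 0.91 to 1.34 in 2i/LIF, so it was higher in serum than in 2i/LIF without overlap and overlapped with KOSR/LIF. Its part in the contractile and matrix results was not tested.

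Immediate early genes and feedback inhibitors of ERK were called higher in 15 of 24 and lower in none, with 11 wholly above and a median of 1.52. In the value table the numbers were 16 called and 7 above, and the median was 0.99, and without KOSR/LIF replicate 3 they were 14 and 12. Egr1, the early-response zinc-finger factor, was nearly constant in serum at 2.02, 2.00 and 2.39, ranged from -0.78 to 1.24 in KOSR/LIF and lay between -6.38 and -4.89 in 2i/LIF. Dusp6, an ERK phosphatase read as a gauge of ERK output, stood at 4.42, 3.97 and 4.03 in serum and at 3.98, 3.72 and 3.91 in KOSR/LIF. Serum and KOSR/LIF thus overlapped for Dusp6 (0.26, limma adjusted p = 0.649), and its call came from 2i/LIF at -0.01 to 1.00 (3.79, limma adjusted p = 3.9e-06). As 2i/LIF holds a MEK inhibitor and KOSR/LIF does not, both differences are given for the genes that follow, and the inhibitor's part in the result was not tested.

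Members that also exceeded KOSR/LIF were fewer. Against KOSR/LIF alone 5 of 24 were called higher, and Egr2 (3.05 against 2i/LIF and 1.51 against KOSR/LIF), Junb (2.29 and 1.6) and Spry1 (2.55 and 1.76) lay above and passed against each medium. Spry1, an inhibitor of receptor tyrosine kinase signalling, stood at 2.77, 2.53 and 2.60 in serum, 0.96, 1.07 and 0.58 in KOSR/LIF and -0.60 to 0.94 in 2i/LIF. Spry4 differed by 3.58 ± 0.36 and Dusp4 by 3.60 ± 0.62, with 5.55 and 5.51 against 2i/LIF, and 1.61 (limma adjusted p = 0.0562) and 1.68 (limma adjusted p = 0.245) against KOSR/LIF. The Spry4 probe was never well above background in 2i/LIF, so its excess there is a bound: serum was at least 13.0-fold higher. Fos was uneven within serum, at -0.83, -1.01 and 2.31, and its call (2.63, limma adjusted p = 0.0293) was not kept in the value table (0.35, limma adjusted p = 0.853) or without KOSR/LIF replicate 3 (limma adjusted p = 0.0558). Fos passed against neither medium alone (2.19 against 2i/LIF and 3.08 against KOSR/LIF). Myc was at 1.41, 1.43 and 1.45 in serum, -0.53 to 0.92 in KOSR/LIF and -4.09 to -1.34 in 2i/LIF, a difference of 2.41 ± 0.52, with 3.57 against 2i/LIF and 1.26 (limma adjusted p = 0.307) against KOSR/LIF. Mycn lay wholly above and was called against each medium, with 1.3 and 1.41.

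Id1 and Id2, which code for inhibitors of basic helix-loop-helix factors and are classic targets of BMP in ES cells, were called higher in serum than in either serum-free medium. Id2 stood at 2.99, 2.03 and 2.84 in serum, -1.16, 0.48 and 0.43 in KOSR/LIF and -2.70 to -1.24 in 2i/LIF. The difference was 3.70 ± 0.44 (limma adjusted p = 0.000465), with 4.70 against 2i/LIF and 2.70 against KOSR/LIF, both called. Id1 stood at 2.73, 1.97 and 2.56 in serum, -0.17, -0.04 and -0.49 in KOSR/LIF and -4.08 to -1.44 in 2i/LIF, and was called against both as well (4.59 and 2.66). Id3 differed by 2.45 ± 0.59 with 2.38 against KOSR/LIF (limma adjusted p = 0.082), and Id4 did not pass (-0.12). The ligand gene Bmp4 lay wholly above at 4.31, 4.02 and 4.71, with 0.92 to 3.60 without serum, and was called (1.78, limma adjusted p = 0.0431) but not without KOSR/LIF replicate 3 (limma adjusted p = 0.0744). Over the BMP and SMAD1/5 list 5 of 16 were called higher and none lower, and the remaining 11, such as Smad6 (-0.02), Smad7 (0.26) and Msx2 (0.21), did not pass, and the median was 0.24.

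TGF-beta and Nodal genes were mixed, with 5 of 17 called higher and 1 lower. Cfc1 (Cryptic, a Nodal co-receptor) stood at 0.57, 0.91 and 0.72 in serum, -4.19 to -0.30 in 2i/LIF and -4.71, -6.54 and -4.45 in KOSR/LIF, where it was not well above background. Serum was at least 22.9-fold higher than KOSR/LIF for Cfc1. Inhba (activin A) was dim on all serum-free arrays, and serum was at least 3.20-fold higher. Nodal itself (-0.08) did not pass. Of 13 Notch genes 4 were called higher, among them Lfng (a Notch glycosyltransferase, 3.14 ± 0.75), Jag2 (a Notch ligand, 1.3) and Hes5 (a Notch target, 0.97). The Lfng probe was well above background on 1 array of 2i/LIF and on none of KOSR/LIF. By the means, serum was at least 3.34-fold higher than KOSR/LIF for Lfng, but that difference did not pass (2.57, limma adjusted p = 0.141). Neither Jag2 (1.01, limma adjusted p = 0.133) nor Hes5 (0.51, limma adjusted p = 0.292) passed against KOSR/LIF alone. Of the 13 Notch genes, 1 was called higher there.

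Genes of insulin and IGF signalling were called higher in 5 of 20 and lower in 1. Irs1, an adaptor of the insulin and IGF1 receptors, stood at 0.68, -0.14 and 0.45 in serum, with all 8 serum-free arrays between -3.26 and -1.48, and was called against each medium (2.78 and 2.28). The binding protein Igfbp3 (3.23 ± 0.56) was called against each as well. Igf1r lay wholly above, at 1.74, 1.72 and 1.46 against -1.06 to 1.18. Sesn1, a FOXO and p53 target, lay wholly below, at 0.26, 0.65 and 0.37 in serum and 1.32 to 2.20 without serum (-1.31 ± 0.23, limma adjusted p = 0.00426).

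Although LIF was present throughout, 4 of 15 LIF and STAT3 targets were called higher in serum and 1 lower. The feedback inhibitor Cish stood at 0.49, 0.64 and 0.67 in serum, -0.73, -1.08 and -0.42 in KOSR/LIF and -2.30 to -1.68 in 2i/LIF, and the 3 media did not overlap (1.92 ± 0.21, limma adjusted p = 0.000272). Socs2 (1.29) and Pim3 (1.55) were called too, and Socs3 lay wholly above with 1.33 (limma adjusted p = 0.0512). Pim3 did not pass against KOSR/LIF alone (1.62, limma adjusted p = 0.0828). Stat3 (0.21), Lifr (0.19) and Il6st (-0.04), the transducers themselves, did not pass. Ly6e was called lower through 2i/LIF (-1.61) and was near KOSR/LIF (-0.26), but not without KOSR/LIF replicate 3 (limma adjusted p = 0.0526) or in the value table (limma adjusted p = 0.07).

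Interferon and antigen-presentation genes were called higher in 5 of 15, with none lower and a median of 1.01. Psmb8, an immunoproteasome subunit, stood at 1.03, -0.38 and 1.32 in serum, -0.87, -1.30 and -2.30 in KOSR/LIF and -5.86 to -4.76 in 2i/LIF. The ubiquitin-like modifier Isg15 stood at 1.14, 0.85 and 2.92 in serum, so replicate 3 was high, and at -1.50 to -0.11 without serum. Irf9 (0.22) and Irf7 (-0.52) did not pass. Of 8 guanylate-binding proteins, a family examined after its values were seen, 4 were called higher and wholly above (Gbp2, Gbp2b, Gbp3 and Gbp4). Gbp2 stood at 2.30, 0.72 and 2.51 in serum, -0.34, -0.38 and -1.36 in KOSR/LIF and -5.49 to -4.01 in 2i/LIF. These genes are close copies and share sequence, so their probes may not be independent. In the NF-kB list 4 of 11 were called higher, among them Ptgs2 (cyclooxygenase 2, 3.16 ± 0.42) and Csf1 (3.71 ± 0.63, which overlapped with KOSR/LIF), while Nfkbia (0.30) and Icam1 (-0.18) did not pass. The Ptgs2 probe was well above background on 1 array of 2i/LIF and on none of KOSR/LIF. Serum was at least 2.22-fold higher than KOSR/LIF for Ptgs2.

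The naive pluripotency genes called against 2i/LIF alone were all lower in serum, and those called against KOSR/LIF alone were all higher. Of 18 tested, 4 were called lower than in 2i/LIF and 5 higher than in KOSR/LIF, and these need not be the same genes. Where a gene differs both ways, the combined mean sets its 2 differences against each other. The median of the combined difference was 0.16. Tfcp2l1, for example, differed by -1.45 from 2i/LIF and by 1.42 from KOSR/LIF, both called. Among the core factors, Pou5f1 stood at 6.14, 6.26 and 6.14 in serum and at 5.65 to 6.27 on 7 of the serum-free arrays, with 3.69 on KOSR/LIF replicate 3, and did not pass (0.58, limma adjusted p = 0.431). Nanog did not pass (0.08, from -0.82 against 2i/LIF and 0.99 against KOSR/LIF, neither called), and a second Nanog probe gave -2.19. Prdm14 did not pass in the combined test (-0.61, limma adjusted p = 0.158), but was lower than in 2i/LIF (-1.46, limma adjusted p = 0.00233). Sox2 lay wholly above, at 3.88, 3.82 and 4.22 against 2.17 to 3.56 (0.95 ± 0.21, limma adjusted p = 0.0136), and in the value table it overlapped (0.67, limma adjusted p = 0.0567). In the combined test 2 naive genes were called lower, Spic (-2.04) and Kit (-1.31), and 1 higher, Nr0b1 (1.51). None of the naive genes lay wholly above or below. Spic, a transcription factor gene of 2i cultures, was at 2.28 to 3.78 in 2i/LIF and near serum in KOSR/LIF (0.37, limma adjusted p = 0.642).

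General pluripotency genes were called higher in 6 of 16, with a median of 0.81, and 4 without KOSR/LIF replicate 3. Lin28b, which blocks maturation of let-7 miRNAs, stood at 3.07, 2.87 and 2.55 in serum, 1.98, 2.22 and 1.88 in KOSR/LIF and -0.84 to 0.07 in 2i/LIF. Lin28b did not pass against KOSR/LIF alone (0.8, limma adjusted p = 0.136). Lin28a (1.75) and Dnmt3l (2.40) overlapped with KOSR/LIF, and Lin28a was not called without KOSR/LIF replicate 3 (limma adjusted p = 0.0598). Genes of the formative and primed epiblast were called higher in 4 of 15. Pou3f1 (Oct6) lay wholly above and was called against each medium, with 4.56 and 1.69. Fgf5, the early epiblast marker, stood at 0.82, 0.07 and 0.27 in serum, -2.93, -3.33 and -0.37 in KOSR/LIF and was not well above background in 2i/LIF, where serum was at least 36.3-fold higher. Fgf5 did not pass against KOSR/LIF alone (2.6, limma adjusted p = 0.113). Otx2 (1.36), Eomes (-0.01) and Fgf8 (-0.49) did not pass the combined test.

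The de novo methyltransferase gene Dnmt3b lay wholly above, at 6.49, 6.24 and 5.62 against 2.77 to 5.50, and passed narrowly (1.54 ± 0.45, limma adjusted p = 0.0492), but not without KOSR/LIF replicate 3 (limma adjusted p = 0.0619) or in the value table (limma adjusted p = 0.0563). Uhrf1, the recruiter of maintenance methylation, was lower (-0.76, limma adjusted p = 0.0247), through 2i/LIF (-1.14). Dnmt1 (-0.14), Dnmt3a (-0.03), Tet1 (0.62) and Tet2 (0.03) did not pass. Imprinted genes were called higher in 6 of 18 and lower in none, with a median of 1.1. Against 2i/LIF alone 10 were called higher and 1 lower, and against KOSR/LIF alone only 1 was called, Magel2, which was higher. Magel2 stood at 0.31, -0.03 and 0.23 in serum, with all serum-free arrays between -3.76 and -1.98, and was called against each medium (3.51 and 2.35). Cdkn1c, an imprinted inhibitor of cyclin-dependent kinases, lay wholly above (1.85 ± 0.34) but did not pass against KOSR/LIF alone (0.88, limma adjusted p = 0.278). Peg10 was close to KOSR/LIF (-0.02, limma adjusted p = 0.99).

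**Figure D3:**
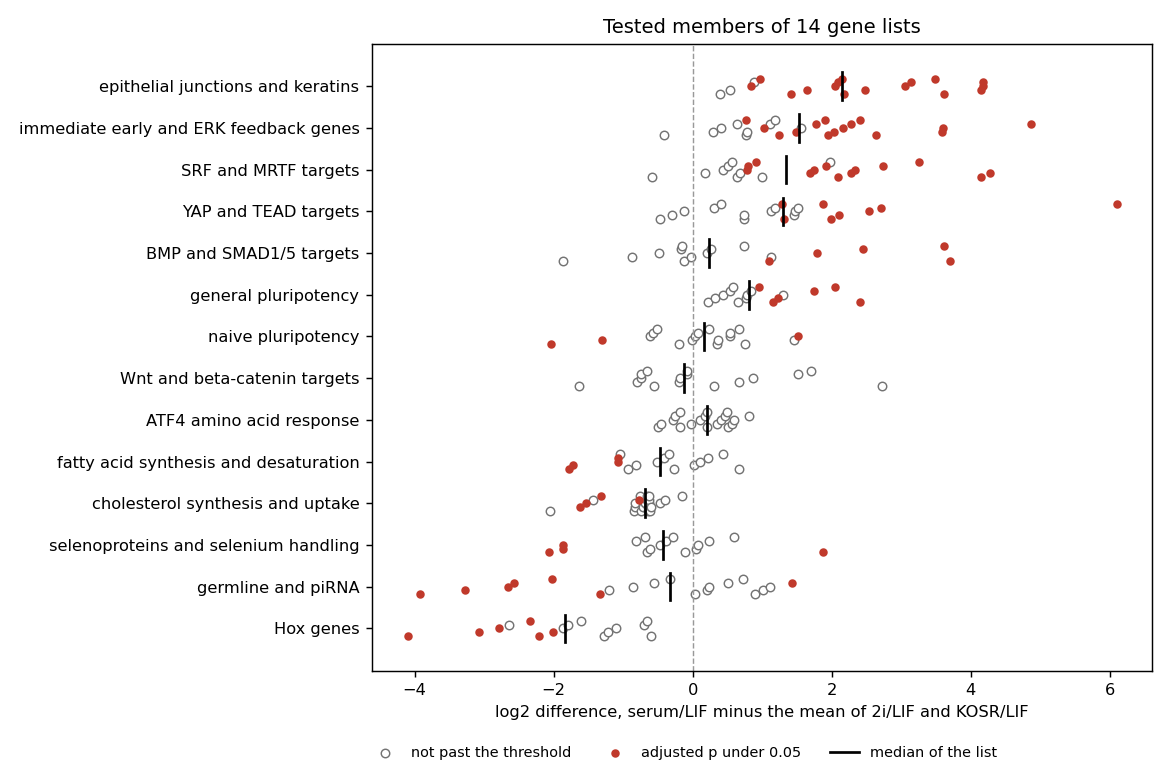
Difference of every tested member of 14 gene lists (horizontal axis, log2, serum/LIF minus the equally weighted mean of 2i/LIF and KOSR/LIF), with filled red circles for genes with a limma adjusted p under 0.05, open circles for the others and a black bar for the list's median; vertical scatter within a list only separates points. Epithelial genes have the highest median (2.15), and Hox genes the lowest (-1.84), among the 14 lists shown.

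Most of the named genes lowest in serum were X-linked, among them members of the Xlr, Rhox and Mage families. Many germline and cancer-testis genes are known to be silenced by promoter methylation in somatic cells. Of the 12 named by the rule, 10 lie on the X chromosome: Xlr5b, Rhox2c, Xlr4a, Xlr5c, Tex13b, Xlr4b, Asb9, Magea8, Rhox2h and Ctag2l2. The other two were Bhmt and Pkd2l1. All 12 were called lower against each serum-free medium and kept their position in the value table. Of the 12, 11 stayed called whichever array was left out, Xlr5c being the exception (highest limma adjusted p = 0.052). Only 1 of the 12, Rhox2h, was well above background on all serum arrays, so most deficits were read against dim serum signals. With dim serum signals lifted to the floor of their array, Asb9 fell from 27.4- to 10.2-fold and Rhox2c from 46.4- to 40.1-fold, and Bhmt stayed at 30.2-fold. The largest difference of all, -6.83, belonged to the X-linked 1700013H16Rik, which the naming rule skips for its clone name.

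Xlr5b, of the X-linked lymphocyte-regulated family, stood at -4.88, -5.86 and -3.55 in serum, at 2.71, -0.85, 1.89, -1.40 and 1.69 in 2i/LIF and at 2.04, 0.70 and -0.31 in KOSR/LIF. Both serum-free media were thus high with a wide spread, and the difference was -5.57 ± 0.88 (limma adjusted p = 0.00229), with -5.57 against 2i/LIF and -5.58 against KOSR/LIF. Rhox2h, a reproductive homeobox gene, was detected on all arrays, at -2.72, -2.56 and -1.75 in serum, 0.44 to 3.29 in 2i/LIF and 2.67, 2.44 and 1.53 in KOSR/LIF (-4.62 ± 0.54, limma adjusted p = 0.000452). Magea8, a MAGE cancer-testis gene, was not well above background on any serum array, and the serum-free media were at least 6.38-fold higher. Within 2i/LIF, replicate 4 had the lowest level for Rhox2h, Xlr5b, Xlr4b, Magea8 and Ctag2l2, at 0.44, -1.40, -0.33, -3.67 and -2.50.

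By family, 7 of 8 Xlr genes, 8 of 17 Rhox genes and 6 of 15 Mage genes were called lower, and 5, 7 and 6 lay wholly below. Both Ctag2-like genes and both Tuba3 genes (testis alpha-tubulins) were called lower and lay below. One Mage gene, the imprinted Magel2, was called higher in the combined test, and no Xlr or Rhox gene was. Against 2i/LIF alone, 2 Rhox genes were called higher and 6 lower. These families were grouped by symbol after their values were seen. Their members are near-identical copies, so 1 probe can read several of them, and the counts are not counts of independent genes. Rhox6 (1.11) and Rhox9 (1.01), the placental and germ-cell members, did not pass the combined test.

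**Figure D4:**
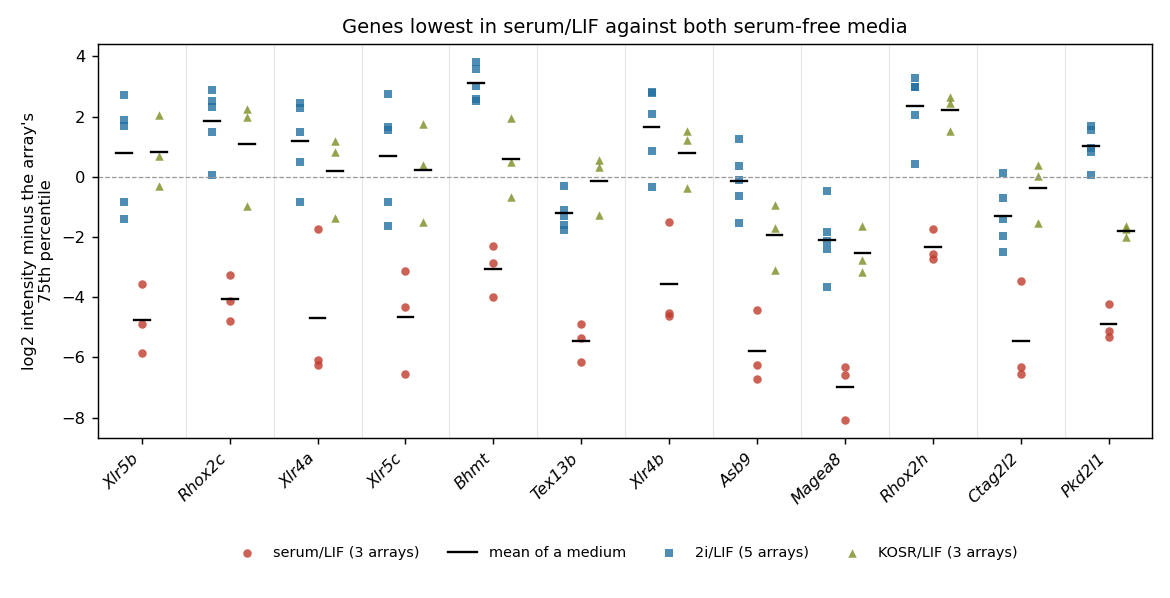
Level of each of the 12 named genes with the largest deficit in serum/LIF, on the vertical axis as log2 intensity minus the array's 75th percentile, 1 symbol per array and a black bar per mean. Serum arrays (red) lie below all 8 serum-free arrays for each gene, 2i/LIF (blue) and KOSR/LIF (green) share a range for Xlr5b and Rhox2h, and 2i/LIF is the highest medium for Bhmt and Pkd2l1.

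The X chromosome was over-represented on both sides. It holds 3.81% of the genes tested, 6.48% of the genes above and 8.87% of those below. Put per chromosome, 11% of X-linked genes lay above and 9.02% below, against 6.45% and 3.88% of all genes. Among the 50 called genes with the largest deficits 25 were X-linked, and among the 50 with the largest excess 5 were. X-linked genes made up 20 of the 221 above and called against each medium, and 32 of the 183 below. The tandem Xlr, Rhox and Mage families gave 5, 7 and 6 of the 56 X-linked genes below. Linked genes are not independent, and no test was made of the shares.

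**Figure D5:**
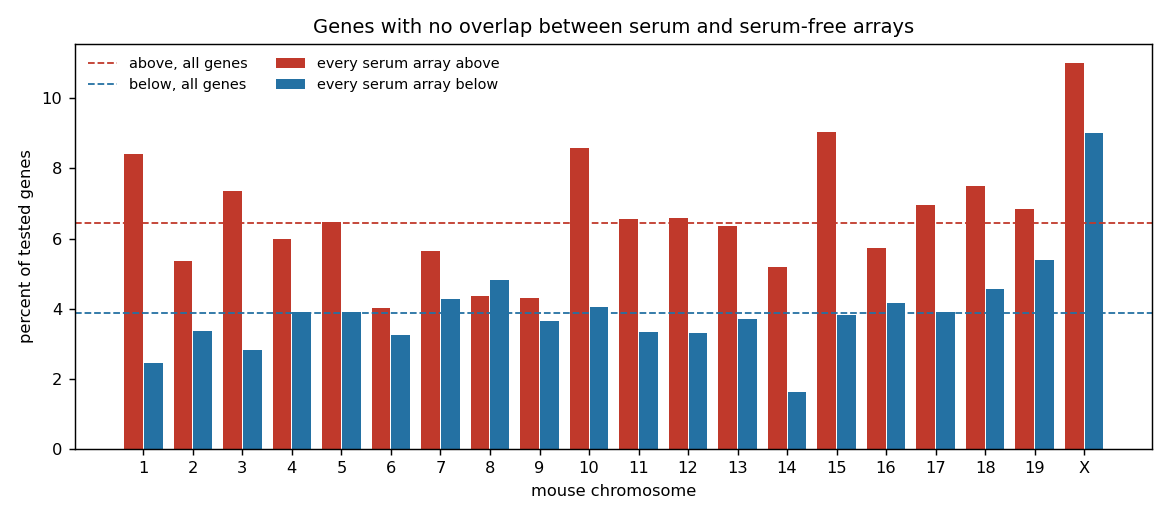
Percent of the tested genes of each mouse chromosome (bars, vertical axis starting at 0) for which every serum array lay above (red) or below (blue) all serum-free arrays, with dashed lines at the percent over all genes (6.45 and 3.88). The X chromosome has the highest bar of either kind, 11% above and 9.02% below.

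Promoters of the genes below held fewer CpG dinucleotides, the site of DNA methylation. The median number in 300 bases of RefSeq promoter was 18 over all genes, 19 for genes above, 11 for genes below and 8 for the 50 largest deficits, and 64.6% of these last promoters had under 10, against 30.9% of all. The windows of 4 called genes show the range, each running from 150 bases before the annotated start to the start, 5′ to 3′ in the gene's direction with each CG in capitals. The Dazl window is chr17:50293621-50293770 (minus strand), Tex13b chrX:140813434-140813583 (minus), Rhox2h chrX:37673278-37673427 (minus) and Asb9 chrX:164497753-164497902 (plus), on GRCm38.p6.
Dazl: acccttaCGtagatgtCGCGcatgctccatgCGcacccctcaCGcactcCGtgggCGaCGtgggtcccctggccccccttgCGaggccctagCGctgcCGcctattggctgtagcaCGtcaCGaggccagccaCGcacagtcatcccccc
Tex13b: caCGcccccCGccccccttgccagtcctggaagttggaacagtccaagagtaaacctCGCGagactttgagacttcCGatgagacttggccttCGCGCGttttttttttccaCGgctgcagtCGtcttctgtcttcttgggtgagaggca
Rhox2h: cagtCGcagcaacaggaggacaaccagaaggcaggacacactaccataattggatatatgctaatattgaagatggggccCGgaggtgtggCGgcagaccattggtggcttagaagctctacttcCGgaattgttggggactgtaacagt
Asb9: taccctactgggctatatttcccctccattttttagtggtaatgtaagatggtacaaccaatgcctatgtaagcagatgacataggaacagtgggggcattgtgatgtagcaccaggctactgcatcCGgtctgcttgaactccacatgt
The windows hold 14, 10, 4 and 1 CG, and all 4 genes lay wholly below. A single-copy germline gene (Dazl) thus has a CpG-dense start, while Rhox2h and Asb9 do not. The 50 largest deficits include close copies of the Xlr, Rhox and Mage families, so their promoters are not independent. DNA methylation was not measured, and its part in the deficits was not tested.

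Germline and piRNA genes outside these families were called lower in 6 of 19 and higher in 1. The 2 media differed here. Against 2i/LIF alone 6 of the 19 were called higher and 3 lower, and against KOSR/LIF alone 1 was called higher and 8 lower. Dazl, which codes for a germ-cell regulator of translation, stood at -2.83, -2.85 and -1.40 in serum, -1.29 to 1.75 in 2i/LIF and 1.67, 1.33 and 0.66 in KOSR/LIF (-3.27 ± 0.59, limma adjusted p = 0.00471). Hormad1, of the meiotic chromosome axis, was lower by a like amount against each medium (-2.39 and -2.93). A second Hormad1 probe gave -2.19, overlapped and was not called. Stra8, the retinoic-acid-induced gate to meiosis, was the most uneven: serum replicate 3 was at 3.19 and the others at -1.35 and -0.46, KOSR/LIF was at 7.01, 6.75 and 5.90, and 2i/LIF ranged from 0.00 to 3.79. Its deficit was thus against KOSR/LIF (-6.09) and not established against 2i/LIF (-1.75, limma adjusted p = 0.348). Prdm1, a germ-cell specifier, was higher (1.43 ± 0.38), but did not pass against 2i/LIF alone (1.1, limma adjusted p = 0.0908). The E-box CACGTG was present in 10 of 16 promoters of this list (62.5%), in 9.20% of all and in 8.36% of those below.

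Hox genes were called lower in 6 of 16 and higher in none, with a median of -1.84. Hoxc4 stood at -4.15, -5.50 and -3.38 in serum, 0.80 to 1.79 in 2i/LIF and -3.03, -0.85 and -1.15 in KOSR/LIF, and was called against each (-5.54 and -2.67). The Hoxc4 probe was well above background on 1 of 3 serum arrays. Hoxb4 (-3.07) and Hoxa3 (-2.78) were called lower mainly against KOSR/LIF, with serum not well above background on 2 of 3 arrays for either. Without KOSR/LIF replicate 3 neither was called (limma adjusted p = 0.052 and 0.0597), nor was Hoxb4 in the value table (limma adjusted p = 0.0642). In the value table and without KOSR/LIF replicate 3 the list had 4 called. The retinoid genes Dhrs3 (-1.44 ± 0.25, wholly below), Stra6 (-2.0) and Stra8 were called lower, and Cyp26a1 (1.21), which degrades retinoic acid, higher, in each case with KOSR/LIF farther in the direction of a higher level than 2i/LIF. Genes of the 2-cell-like state such as Zscan4f (-2.48) and Zscan4c (-2.15) spread widely within each medium and did not pass. Cdkn2c (p18, an inhibitor of CDK4 and CDK6) lay wholly below, at -6.45, -6.86 and -4.25 against -3.21 to -2.02. Its probe was well above background on 1 of 3 serum arrays. With dim serum signals lifted to the floor of their array, the deficit fell from 8.28- to 2.84-fold.

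Cholesterol synthesis and uptake genes, which SREBP-2 induces when sterols are scarce, all had negative differences, most of them small. Of 25 tested, 9 lay wholly below, 4 were called lower and none higher, and the median was -0.68. Without KOSR/LIF replicate 3, 14 were called and 18 lay below, and in the value table the numbers were 13 and 16. Insig1, a sterol sensor that retains SREBP precursors, stood at -1.95, -1.18 and -1.40 in serum, 0.08 to 0.97 in 2i/LIF and -0.33, 0.09 and -0.25 in KOSR/LIF (-1.62 ± 0.25, limma adjusted p = 0.00208). Msmo1, a sterol C4 oxidase, stood at 3.59, 4.08 and 3.86 in serum against 4.79 to 5.48 (-1.32 ± 0.20), and both were called against each medium. Tm7sf2 (-1.53) and Sqle (squalene epoxidase, -0.77) were called as well. Hmgcs1 (-0.66, limma adjusted p = 0.104) did not pass. Acat2 lay wholly below yet was not called, since KOSR/LIF replicate 3 was at 5.39 and the other 7 serum-free arrays at -0.38 to 1.42.

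Of 16 genes of fatty acid synthesis and desaturation, 4 were called lower and none higher, while 8 were called lower in the value table and 5 without KOSR/LIF replicate 3. Thrsp, a regulator of lipogenesis, stood at -3.13, -3.04 and -2.93 in serum and -2.67 to -0.44 without serum, and was called against each medium (-1.58 and -1.99). The desaturase genes Scd1 (-1.72), Scd2 (-1.07) and Fads2 (-1.08) were called, while Fasn (0.22), Acaca (0.02) and Srebf1 (-0.41) did not pass. Scd1 was called through 2i/LIF, and Fads2 did not pass against KOSR/LIF alone (-0.75, limma adjusted p = 0.191). Targets of LXR and PPAR were split, with 4 of 13 called higher and 1 lower, but only 2 higher without KOSR/LIF replicate 3 and 2 in the value table. Apoe lay at 7.32, 7.33 and 7.08 in serum against 5.67 to 7.06, and did not pass against 2i/LIF alone (0.6, limma adjusted p = 0.205). Abca1 (a cholesterol exporter) was called through KOSR/LIF (2.37). It was not called without KOSR/LIF replicate 3 (limma adjusted p = 0.0684) or in the value table (limma adjusted p = 0.0597). Cpt1a (mitochondrial fatty acid import) was lower (-1.22 ± 0.24), but did not pass against KOSR/LIF alone (-0.96, limma adjusted p = 0.0823).

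Betaine and methionine metabolism held 1 of the largest deficits of all. Bhmt (betaine-homocysteine methyltransferase) stood at -4.01, -2.88 and -2.29 in serum, 2.53 to 3.82 in 2i/LIF and 0.50, 1.97 and -0.66 in KOSR/LIF, and all 3 of its probes lay wholly below (-4.92, -5.18 and -5.30). Its neighbour and homologue Bhmt2 (-3.77) and the dimethylglycine dehydrogenase Dmgdh (-3.72) were lower mainly against 2i/LIF, with -1.55 (limma adjusted p = 0.105) and -1.11 (limma adjusted p = 0.386) against KOSR/LIF. Mtr, the vitamin B12-dependent methionine synthase, was lower by a small and even amount, at 1.57, 1.45 and 1.55 in serum against 2.31 to 2.73 on the 8 other arrays (-0.93 ± 0.18, limma adjusted p = 0.00609). The other 13 of the 17 genes in the list did not pass.

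Selenoproteins gave 3 called lower and 1 higher of 16. Gpx1 (glutathione peroxidase 1) stood at 5.62, 5.09 and 4.69 in serum, 7.23 to 7.65 in 2i/LIF and 6.90, 6.84 and 5.92 in KOSR/LIF (-1.87 ± 0.27, limma adjusted p = 0.00142). Selenow (-2.07 ± 0.33) and Selenoh (-1.86 ± 0.29) behaved alike, and all 3 were called against each medium. Their mRNAs are known to be degraded when selenium is scarce. Gpx4 (0.23), whose mRNA is known to resist scarcity, and Txnrd1 (-0.47) did not pass, and Selenop, a selenium carrier, was higher through 2i/LIF (3.48) but not called in the value table (limma adjusted p = 0.0704). Of 14 NRF2 targets 2 were called lower (4 in the value table), Nqo1 (-1.98) and Gstp1 (-1.46), and 12, such as Hmox1 (0.09), did not pass.

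In metal handling the calls fell on single genes. The exporter Slc40a1 (ferroportin) stood at 1.22, 0.69 and 1.42 in serum against -3.67 to -0.68 (2.94 ± 0.39, limma adjusted p = 0.000842) and was called against each medium, and the iron importer Slc11a2 was higher too (1.24). The transferrin receptor Tfrc did not pass (0.00, limma adjusted p = 0.998). The metallothionein genes Mt1 (0.27) and Mt2 (-0.18) did not pass, with 2i/LIF the highest and KOSR/LIF the lowest medium for both. None of 19 ATF4 targets, 16 Wnt and beta-catenin targets or 11 mesoderm genes was called by limma in the combined comparison. At an unadjusted p under 0.05 they numbered 2, 3 and 4, and 0, 1 and 1 were called both in the value table and without KOSR/LIF replicate 3. In the Wnt list 1 gene was called higher and 4 lower against 2i/LIF, and 1 higher against KOSR/LIF, so the combined mean sets opposite sides against each other there. Sp5, for example, was called lower than in 2i/LIF (-2.78) and higher than in KOSR/LIF (4.10).

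The no-overlap rule has a sharp edge. Among called genes the narrowest to enter from above were Ptgds, Rab32, Gas6, Tbx20 and Tceal5, whose nearest serum and serum-free arrays were 0.0012 to 0.0084 apart, and the nearest to miss were Vgf, Ccdc91, Plec, Ap3s2 and Adk, which overlapped by 0.0005 to 0.0074. From below, Chn1, Oas1e, Vmn1r44, Rtn4rl1 and Tmem82 entered by 0.0020 to 0.0060, and Hebp1, Stk33, Slc30a10, C2cd4b and Calcoco2 missed by 0.0008 to 0.0077. The median gap of all members was 0.26 above and 0.27 below. For 422 members with more than 1 probe, 448 of 496 other probes had the sign of the probe used, and 189 (38.1%) also lay wholly on the same side. Of the members, 352 above and 210 below were called in every fit that left out 1 array. Among called genes described before these edge genes, Bmp4, Dnmt3b, Lin28a, Abca1, Ly6e, Apoe and Tns3 kept their call in 3 to 5 of the 11 such fits.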

How the data were processed

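Total RNA of 11 cultures was labelled with Cy3 and hybridised to one-colour Agilent mouse arrays, and the deposited scanner files hold spot intensity values from Agilent Feature Extraction 11.0.1.1, background-subtracted per the file headers. The authors deposited a table of processed intensity values too, linear with column medians of 46.5 to 47.8, which was used as log2. The sources used here do not state the normalization of these columns.

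Of 62976 spots, 59305 were not controls and gave 55681 probes, of which 33 with outlier flags were left out. RefSeq accessions named 27642 probes of 20964 genes. The log2 intensity minus the array's 75th percentile was the level. A probe had to be well above background on at least 3 of 11 arrays, and the brightest probe stood for a gene, which left 16279 genes. Serum minus the mean of both serum-free group means was tested with limma 3.58.1 in R 4.3.3 (lmFit and eBayes on group means, two-sided, Benjamini-Hochberg over all genes, threshold 0.05, 8 residual degrees of freedom), which was tested on simulated data. Where a group was never well above background, "at least N-fold" sets the brighter group against that group with each dim signal lifted to the floor of its array, the lowest signal called well above background there.

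The members and lists were chosen with earlier results of these data known. Named genes were the 12 largest called, non-overlapping differences in each direction (clone and locus names skipped), up to 3 called members of each list with at least 3 called or non-overlapping members and 1 called the other way, a fixed set, and the genes nearest to the edge of the no-overlap rule. Other names are list or family members chosen after their values were seen. Some list members that enter the counts are not reported here by name. Nothing states that replicates are separate cultures beyond their line, so a p-value covers only the spread among these arrays, and the number of arrays limits the precision. Scan day and slide came from the headers. Alternatives covered background correction, normalization, filter, probe choice, grouping, batch, replicate and line blocks, the value table and leaving out each array. Promoter sequences are from RefSeq (GRCm38.p6), and 12911 tested genes matched.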

Additional observations from a re-analysis of the deposited data

Results flagged for a closer look

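Of the 142 named genes, 8 had 1 array of 2i/LIF far from the other 4 of that medium, by the gap to the nearest array as a share of the whole range. Chance flags about 1 in 20 groups, and over all 16279 genes the share was 7.07%, so the named genes were flagged no more often than all genes. For 6 of the 8 the array was replicate 2, and its share among the flags of all genes is not given here. Its level was -4.08 for Id1, -2.21 for Id3, -4.09 for Myc and -0.43 for Dnmt3l, each below the other 4 arrays. It was 0.05 for Acta2 and 0.93 for Srgn (serglycin, a granule proteoglycan), each above the other 4. Replicate 4 stood low for Thrsp at -2.67 and for Ccnd2 (cyclin D2) at -5.21. Without 2i/LIF replicate 2 the limma adjusted p stayed under 0.05 for Id1, Id3, Myc, Dnmt3l and Srgn. Acta2, not called with all arrays, was called without it (2.27, limma adjusted p = 0.016). Thrsp and Ccnd2 also stayed under 0.05 without replicate 4.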

How the results depend on the processing

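The counts called were 1734 in all, 1037 higher and 697 lower, and 1681 without overlap, 1050 above and 631 below. With normexp background correction the calls were 968, 627 and 341. With the 8 serum-free arrays as 1 group they were 814, 462 and 352. Leaving out 1 array gave 813 to 1924 called, 487 to 1124 higher and 326 to 826 lower, and 1750 to 2437 without overlap, 1070 to 1456 above and 666 to 985 below. The fewest calls came without serum replicate 1, 2 or 3, the fewest genes above without 2i/LIF replicate 3 and the fewest below without 2i/LIF replicate 5, and the count below was 981 without serum replicate 3 and 985 without KOSR/LIF replicate 3. With slide as a block 1133 were called lower. Fewer arrays overlap less by construction: within scan day 1 (6 arrays) 4747 genes did not overlap, 2356 above and 2391 below. Within scan day 3, which holds 2i/LIF as its only serum-free medium, 1117 were called, 400 lower, and 12304 did not overlap, 5309 above and 6995 below. In the value table without its KOSR/LIF replicate 3 column 981 lay below. Only Abca1 (-0.45), Stra6 (0.90) and Gata4 (0.48) turned their sign as called genes, all within scan day 3. Where no construction shows it, the cause was not tested.

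The replicate block gave 1281 called, 749 higher and 532 lower. Over 9 pairs of same-numbered arrays the deviations from group means correlated at -0.202 to 0.183, and 2 pairs were over 0.1. By title 5 of the 9 pairs share a cell line, both of these among them, but the numbers do not follow the lines throughout and were not taken as pairing. Of 142 named genes 130 were called, and 42 of these stayed called in all 27 settings. The medians of 12 lists turned sign in at least 1 setting. KOSR/LIF replicate 3 is the dimmest array, and its low signals limit the genes that lie near background.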

Other observations

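Genes of the cell cycle were called in both directions, 4 of 15 higher and 2 lower. Cdkn1a (p21, a CDK inhibitor and p53 target) stood at 2.07, 2.38 and 2.41 in serum, 2.05, 2.42 and 2.39 in KOSR/LIF and 4.20 to 4.54 in 2i/LIF, so its deficit (-1.03 ± 0.18, limma adjusted p = 0.00447) was set by the 2i/LIF arrays. A second, dimmer Cdkn1a probe gave -0.18 and was not called. Ccnd2 had the opposite order to the first Cdkn1a probe, at -0.99 to -0.69 in serum, -1.08 to -0.62 in KOSR/LIF and -5.21 to -3.31 in 2i/LIF. Ccnd2 was not called in the value table (limma adjusted p = 0.235). Of 16 p53 targets, 2 were called higher and 2 lower. Bbc3, a pro-apoptotic BCL-2 family gene, was among those higher (0.97). Of 20 hypoxia and glycolysis genes, 2 were called lower (1 in the value table), and Hk1 (hexokinase 1) lay wholly below, at 2.29, 2.93 and 2.78 against 2.95 to 5.43 without serum.

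Among lineage genes, Bmp8b stood at 0.26, -0.51 and 0.35 in serum, -2.29 to -1.96 in KOSR/LIF and -4.14 to -3.38 in 2i/LIF, and was called against each medium (3.80 and 2.16). Map2, a neuronal microtubule protein, was higher by a like amount against each (2.81 and 2.67). Pax6 was called through 2i/LIF and was near KOSR/LIF (0.08, limma adjusted p = 0.944), as was Lrp2 (megalin, -0.04, limma adjusted p = 0.97). Gata4, of primitive endoderm, was lower through KOSR/LIF (-2.16) and stood close to 2i/LIF (-0.02, limma adjusted p = 0.984). Its combined call was narrow (-1.09, limma adjusted p = 0.048) and was lost in the value table (limma adjusted p = 0.0976), with scan day as a block (0.0513) and in 9 of 11 fits that left out 1 array. In the 2-cell list Zfp352 was higher (1.56 ± 0.29) and Usp17lc lower (-1.27 ± 0.23), and 5 of the 12 were called lower in the value table. All 5 gamma crystallins, lens proteins grouped after their values were seen, lay wholly below, and 2 were called, Cryge (-3.87, not called in the value table) and Crygf (-3.68). They are close copies whose probes may share sequence.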
